A study of Mus musculus with 12 samples.

Results

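The genes described here are 10 antioxidant genes of the mouse. They are Nqo1, Gclc, Gclm, Txnrd1, Srxn1, Gsr and Slc7a11, which are known targets of the transcription factor NRF2, and Sod1, Sod2 and Cat, which remove superoxide and hydrogen peroxide. They were chosen by name, among 17305 genes with a named probe on the array. No rule on measured values was used, but earlier results of these data were known. Every member had at least 1 probe, 16 probes in all, assigned through the RefSeq accession that the array design gives for each probe. Of the 10 genes, 8 gave signal well above background and were tested, among 12647 genes tested. Gclm and Slc7a11 gave no such signal in either genotype.

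The study compared kidneys of Bdkrb2 null and Bdkrb2 wild type (WT) mouse embryos at embryonic day 14.5 on a C57BL/6 background. Bdkrb2 encodes the bradykinin B2 receptor, a receptor for kinin peptides. Both genotypes came from Bdkrb2 heterozygous parents, and both were exposed to maternal high salt, as the mothers ate food with 5% sodium, so no group without the salt load enters the comparison. Total RNA of both genotypes was hybridised to each of 12 Agilent 2-colour arrays, labelled with Cy5 or Cy3. There were 3 replicates with null RNA in Cy5, here called null/WT, and 3 with null RNA in Cy3, here called WT/null, and each of these 6 replicates was run on 2 duplicate arrays. The labels call the replicates biological, but do not say how many embryos or litters went into an RNA sample, nor whether the null/WT and WT/null replicates of one number used the same RNA. The p-values therefore measure the spread between these 6 replicates. The null/WT and WT/null replicates of one number moved together, with correlations of 0.59, 0.52 and 0.41, so the 6 were not fully independent. With the 3 replicate numbers as pairs, the 95% intervals of the tested genes had a median of 1.29 times the width given below.

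NRF2, the product of Nfe2l2, is held at a low level by KEAP1, which presents it to a CUL3 ubiquitin ligase for degradation. Oxidants and electrophiles modify KEAP1, and NRF2 then accumulates, pairs with a small MAF protein and binds antioxidant response elements near genes of glutathione synthesis, thioredoxin recycling, quinone detoxification and NADPH supply. Superoxide made by mitochondria and NADPH oxidases is converted to hydrogen peroxide by superoxide dismutases, and catalase, glutathione peroxidases and peroxiredoxins then break the peroxide down. In the kidney these systems are known mainly from the tubule epithelium, which has many mitochondria, and salt loading is a condition in which renal oxidant production has often been studied.

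Facts of the arrays bear on every value below. Each of the 3 slides held the 4 arrays of one replicate number and was scanned on its own, so replicate number, slide and scan cannot be told apart. On all 3 slides the WT/null arrays took the same positions and the null/WT arrays the others, so dye orientation and array position cannot be told apart either. The null over WT value is the contrast of the orientations, and so it cannot be told apart from a contrast of array positions. The share of probes well above background was 41.2% to 59.0% in Cy3 and 51.1% to 60.04% in Cy5, lowest in the first array of WT/null replicate 3. The log2 ratios of that array also had the widest spread (SD 0.38, against 0.16 to 0.26 on the others), and the duplicate arrays of WT/null replicate 3 correlated at 0.71, against 0.82 to 0.92 in the other 5 replicates. Of 11 embryonic kidney markers, 10 were well above background, including Six2 and Wt1, and Ret was not. For the Bdkrb2 probe, no null channel and 1 of 12 WT channels exceeded background, so its level checks no label. Xist gave signal in all 12 null channels and in the 4 WT channels of slide 1, but in no WT channel of slides 2 and 3. Kdm5d, Ddx3y and Eif2s3y gave signal in the 8 WT channels of slides 2 and 3 and in no null channel. The embryos' sexes thus matched between genotypes on slide 1 alone. The values of each slide are given beside the results of the 8 tested genes, and for only some genes of the other lists.

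The response element that joins most of these genes is shown first, in promoters from RefSeq (build GRCm38.p6), each reaching from 250 bases before to 50 bases after a transcription start. RefSeq promoter entries were found for 8 of the 10 genes, 10 promoters in all. The core of the element was searched on both strands as TGACNNNGC and, in the variant with a G at the 4th base, as TGAGNNNGC. Where the free bases are TCA, either pattern also holds the letters of an AP-1 site. The first pattern was present in 12.4% of 32851 promoters of this length and in those of Gclm, Sod1, Srxn1 and Txnrd1. The second was present in 17.6% and in those of Slc7a11 and Srxn1, and either pattern in 27.8% of all promoters and 5 of the 10 member promoters. A match describes letters in this window and does not show that NRF2 binds there. The lines below give 160 bases of each of these 5 promoters, from 5′ to 3′ on the strand of the gene, with matches on either strand in capitals.
Gclm: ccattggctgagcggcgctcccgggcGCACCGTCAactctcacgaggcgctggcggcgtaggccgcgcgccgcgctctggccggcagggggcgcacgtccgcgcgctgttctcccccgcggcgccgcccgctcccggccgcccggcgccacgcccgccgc
Slc7a11: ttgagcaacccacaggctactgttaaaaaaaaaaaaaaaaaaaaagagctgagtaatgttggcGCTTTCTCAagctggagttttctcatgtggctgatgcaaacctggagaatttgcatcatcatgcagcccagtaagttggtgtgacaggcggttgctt
Srxn1: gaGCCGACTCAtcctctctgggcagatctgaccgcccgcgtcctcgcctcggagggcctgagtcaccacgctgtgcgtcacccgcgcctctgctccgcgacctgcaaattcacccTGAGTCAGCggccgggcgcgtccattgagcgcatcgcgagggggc
Txnrd1: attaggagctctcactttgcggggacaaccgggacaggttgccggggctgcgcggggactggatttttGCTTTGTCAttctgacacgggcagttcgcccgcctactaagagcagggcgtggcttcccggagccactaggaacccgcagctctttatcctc
Sod1: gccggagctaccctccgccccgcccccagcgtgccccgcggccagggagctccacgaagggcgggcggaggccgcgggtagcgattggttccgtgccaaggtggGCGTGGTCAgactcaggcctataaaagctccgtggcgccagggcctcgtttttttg
The Gclm window lies at chr3:122245397-122245556 on the plus strand, and its match, TGACGGTGC read on the opposite strand, covers bases -134 to -126 from the start. Slc7a11 lies at chr3:50443614-50443773 on the minus strand, with the variant TGAGAAAGC at -97 to -89 on the opposite strand. Srxn1, at chr2:152105364-152105523 on the plus strand, was the member with most matches: TGAGTCAGC at -45 to -37 on the strand of the gene, TGAGTCGGC at -158 to -150 on the opposite strand, and TGACCTAGC at 29 to 37, outside the printed bases. In Txnrd1, at chr10:82859046-82859205 on the plus strand, TGACAAAGC occupied -92 to -84 on the opposite strand. The Sod1 window, at chr16:90220602-90220761 on the plus strand, held TGACCACGC at -56 to -48 on the opposite strand.

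No difference between null and WT kidneys was detected in any of the 8 tested antioxidant genes. Values are log2 ratios of null over WT from the brightest tested probe of each gene, so that 0 means equal signal and 1 a doubling. They ran from -0.035 for Txnrd1 to 0.064 for Gsr, with 5 above 0, 3 below 0 and a median of 0.022. That median was 0.0023 without WT/null replicate 3, 0.010 without null/WT replicate 3, 0.046 without WT/null replicate 2, 0.051 without number 2 and -0.0063 without number 3. Under median centring of each array in place of the intensity-dependent loess fit, all 8 were above 0, and so was the median of all tested probes, at 0.14. The median over all 12647 tested genes was -0.0031, and 5% of genes lay below -0.11 and 5% above 0.14, so every member sat inside the central range of the array. The median absolute ratio was 0.027 for the members and 0.047 for all genes.

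In the limma fit with a dye term and Benjamini-Hochberg adjustment over 22979 probes, 9 probes passed an adjusted p of 0.05 (0.0392% of those tested), and none belonged to the 10 genes. That count over all probes was 3 without replicate number 2, 62 without number 3 and 5 without null/WT replicate 2, and in none of these fits was a member called. An unadjusted p under 0.05 was reached by 7.01% of probes and by 0 of the 8 members. With the 3 replicate numbers as pairs, 4 probes were called (0.0174%), and again 0 members were called. There an unadjusted p under 0.05 was reached by 3.30% of all probes and by 0 of the 8 members. The 95% intervals of the brightest probes of the 8 genes together ran from -0.12 to 0.16, or 0.917-fold to 1.12-fold, and from -0.16 to 0.19 with pairs. These bounds hold for the loess fit and those probes, where smaller changes could not be told from none. In the same fit, the intervals of the dimmer Srxn1 probes A_51_P330125 and A_52_P593200 reached down to -0.22 and -0.20. Under median centring several ratios lay beyond the bounds of the brightest probes, such as 0.26 ± 0.12 (SE) for Gsr and 0.22 ± 0.11 for Nqo1. The standard errors were wider there than in the loess fit, and the median of all probes was 0.14. In whole kidneys, a change within a few cells and an opposite change in the number of such cells would also give a ratio near 0, and array signal does not tell the amount per cell from the number of cells.

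**Figure D1:**
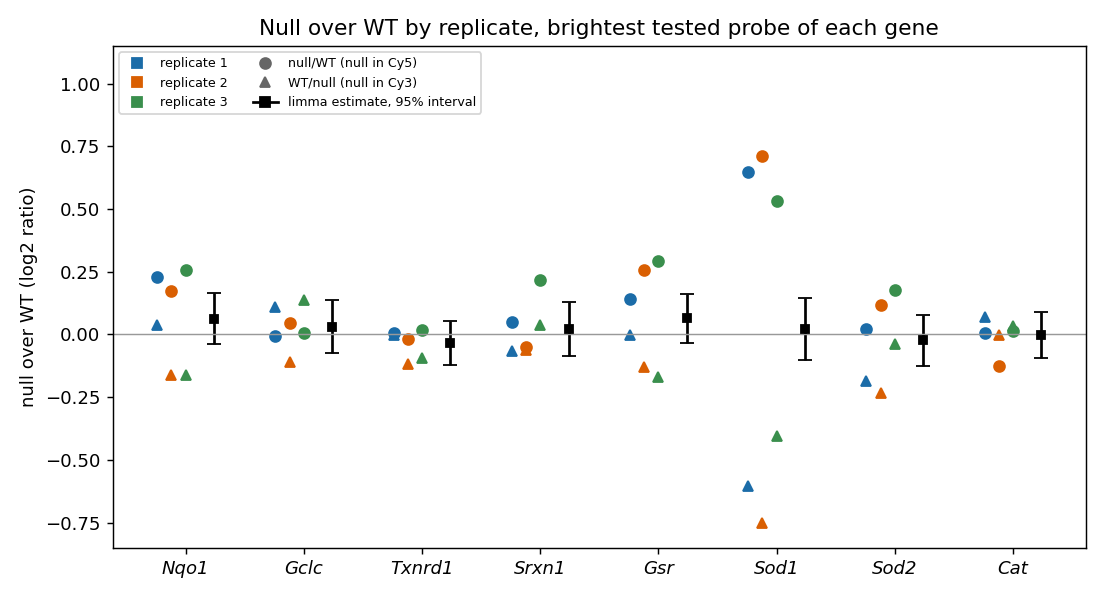
Log2 ratio of null over WT for the brightest tested probe of 8 antioxidant genes, with circles for null/WT replicates, triangles for WT/null replicates, colours for replicate numbers, and black squares with bars for the limma estimate and its 95% interval. Every interval includes 0, and Sod1 shows circles from 0.53 to 0.71 and triangles from -0.75 to -0.41, on opposite sides of 0.

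Glutathione synthesis begins with the import of cystine and the joining of its cysteine to glutamate. Slc7a11 (chromosome 3), the light chain of the cystine-glutamate exchanger, has 3 probes on the array, and none of them exceeded background in any of the 12 null or 12 WT channels. Its brightest probe, A_52_P368057, gave normalized log2 signals of 6.04 to 6.36 in null and 6.09 to 6.25 in WT channels. Gclm (chromosome 3), the modifier subunit of glutamate-cysteine ligase, likewise exceeded background in 0 of the 24 channels with its only probe, A_51_P320089. Its signal was 6.042 to 6.723 in null and 6.102 to 6.216 in WT, and the highest null value came from WT/null replicate 3, whose duplicate arrays agreed least. Signals of these 4 probes lay at the array background, so neither gene has a ratio here, and low expression and a poor probe cannot be told apart.

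Gclc (chromosome 9), the catalytic subunit of the same ligase and the rate-limiting step of glutathione synthesis, was well above background in all 24 channels. Its probe A_51_P365019 gave null over WT ratios of -0.0043, 0.047 and 0.0053 in null/WT replicates 1, 2 and 3, and 0.11, -0.11 and 0.14 in WT/null replicates 1, 2 and 3. Both orientations held values above and below 0, and the WT/null replicates spread more widely. The fitted ratio was 0.031 ± 0.046 (SE, n = 6; 95% interval -0.074 to 0.14; adjusted p = 0.827). It was 0.070 without WT/null replicate 2, 0.0073 without WT/null replicate 3 and 0.015 without WT/null replicate 1. The means of the 3 slides were 0.052, -0.032 and 0.072, and the signal was 10.84 ± 0.041 (SD, n = 6) in null and 10.81 ± 0.076 in WT on the log2 scale.

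Gsr (chromosome 8), glutathione reductase, which returns oxidised glutathione to its reduced form with NADPH, has 3 tested probes. The brightest, A_52_P346738, gave 0.14, 0.25 and 0.29 in null/WT replicates 1, 2 and 3, and -0.0019, -0.13 and -0.17 in WT/null replicates 1, 2 and 3. All null/WT values lay above all WT/null values, so the order followed the dye orientation. With the dye term, the ratio was 0.064 ± 0.043 (SE, n = 6; 95% interval -0.035 to 0.16; adjusted p = 0.729), the highest of the 8 genes. It was 0.039 without WT/null replicate 1 and 0.086 without null/WT replicate 1. Averaging the orientations, the 3 slides gave closely similar values of 0.070, 0.062 and 0.060. Of the other probes, A_52_P91604 gave a value of the opposite sign, -0.019 ± 0.040, and A_51_P359625 gave one of the same sign, 0.037 ± 0.042 (SE).

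Txnrd1 (chromosome 10), the cytosolic thioredoxin reductase, a selenoenzyme that keeps thioredoxin reduced, was represented by probe A_51_P320614. Its ratios were 0.0042, -0.019 and 0.018 in null/WT replicates 1, 2 and 3, and -0.00062, -0.12 and -0.095 in WT/null replicates 1, 2 and 3. The null/WT replicates agreed to within a few hundredths of a log2 unit, and the lowest values were WT/null replicates 2 and 3. The fitted ratio, -0.035 ± 0.038 (SE, n = 6; 95% interval -0.12 to 0.053; adjusted p = 0.774), was the lowest of the 8 genes. It was -0.053 without WT/null replicate 1 and -0.023 without WT/null replicate 2. Slides 1, 2 and 3 gave 0.0018, -0.069 and -0.039, and the signal was 14.03 ± 0.14 (SD, n = 6) in null and 14.06 ± 0.11 in WT.

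Srxn1 (chromosome 2) encodes sulfiredoxin, which restores peroxiredoxins that have been over-oxidised by peroxide. Its brightest probe, A_52_P297032, gave 0.050, -0.050 and 0.22 in null/WT replicates 1, 2 and 3, and -0.065, -0.061 and 0.039 in WT/null replicates 1, 2 and 3. Both values of replicate number 3 were above 0, and null/WT replicate 3 stood highest. The fitted ratio was 0.022 ± 0.047 (SE, n = 6; 95% interval -0.085 to 0.13; adjusted p = 0.879), and it was -0.014 without null/WT replicate 3. Slides 1, 2 and 3 gave -0.0073, -0.055 and 0.13. The dimmer probes A_51_P330125 and A_52_P593200 gave values of the opposite sign, -0.080 ± 0.062 and -0.082 ± 0.053 (SE), and were well above background in 11 and 9 of 12 null channels. The mean of the 3 probes was -0.047, so these probes do not settle the sign of the Srxn1 ratio. Across the 3 slides the mean ratio of A_52_P593200 was 0.0067, -0.070 and -0.18, opposite in sign to that of the brightest probe on slides 1 and 3.

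Nqo1 (chromosome 8), the quinone reductase whose transcript is the usual readout of NRF2 activity, was measured by probe A_51_P424338. It gave 0.23, 0.17 and 0.26 in null/WT replicates 1, 2 and 3, and 0.039, -0.16 and -0.16 in WT/null replicates 1, 2 and 3. As for Gsr, every null/WT value exceeded every WT/null value, although 4 of the 6 replicates were above 0. The fitted ratio was 0.063 ± 0.044 (SE, n = 6; 95% interval -0.038 to 0.16; adjusted p = 0.729), with slide means of 0.14, 0.0062 and 0.047. It was 0.029 without WT/null replicate 1 and 0.080 without WT/null replicate 3. In signal, null channels averaged 8.79 ± 0.13 (SD, n = 6) and WT channels 8.73 ± 0.094, where the SDs include slide and dye differences.

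Of the dismutases, Sod1 (chromosome 16) encodes the cytosolic copper-zinc enzyme and Sod2 (chromosome 17) the manganese enzyme of mitochondria. Probe A_51_P367381 for Sod1 gave 0.65, 0.71 and 0.53 in null/WT replicates 1, 2 and 3, and -0.60, -0.75 and -0.41 in WT/null replicates 1, 2 and 3. The ratio thus changed sign with the dye orientation in each replicate number, and the opposite values nearly cancelled within each slide, at 0.021, -0.021 and 0.063. The fitted genotype ratio was 0.021 ± 0.053 (SE, n = 6; 95% interval -0.10 to 0.14; adjusted p = 0.8999), and it was -0.024 without WT/null replicate 3. The probe was brighter than 99.5% of tested probes and no member probe was marked saturated in any channel. Its signal was 16.23 ± 0.32 (SD, n = 6) in null and 16.20 ± 0.37 in WT.

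For Sod2, probe A_51_P172573 gave 0.023, 0.12 and 0.18 in null/WT replicates 1, 2 and 3, and -0.18, -0.23 and -0.038 in WT/null replicates 1, 2 and 3. The orientations again did not overlap, with null/WT above 0 and WT/null below 0. The fitted ratio was -0.023 ± 0.044 (SE, n = 6; 95% interval -0.12 to 0.079; adjusted p = 0.866). Slides 1 and 2 gave -0.080 and -0.059 and slide 3 gave 0.070, and the fit without number 1 gave 0.0055. Leaving out single replicates gave from -0.052, without WT/null replicate 3, to -0.0025, without null/WT replicate 1.

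Cat (chromosome 2) encodes catalase, the peroxisomal enzyme that splits hydrogen peroxide to water and oxygen. Probe A_52_P679769 gave 0.0074, -0.13 and 0.015 in null/WT replicates 1, 2 and 3, and 0.070, -0.0029 and 0.032 in WT/null replicates 1, 2 and 3. The values lay close together except for null/WT replicate 2, the lowest. The fitted ratio was -0.00074 ± 0.040 (SE, n = 6; 95% interval -0.093 to 0.091; adjusted p = 0.997). It was 0.022 without null/WT replicate 2, 0.0083 without WT/null replicate 2 and 0.031 without both. Slides 1, 2 and 3 gave 0.039, -0.065 and 0.024. Signals were 10.51 ± 0.10 (SD, n = 6) in null and 10.51 ± 0.13 in WT.

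**Figure D2:**
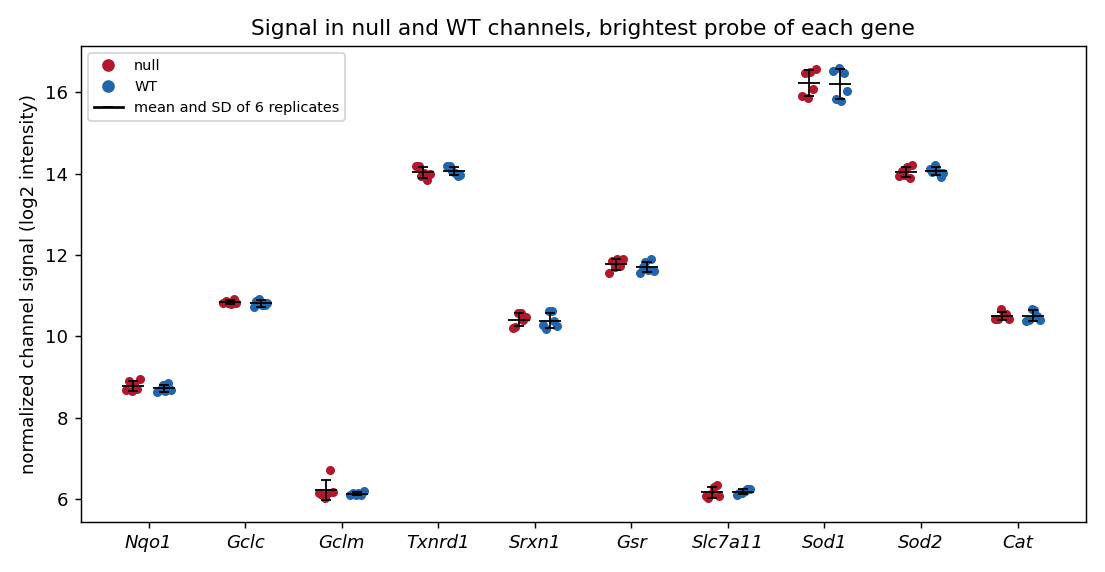
Normalized channel signal (log2 intensity) of the brightest probe of each of the 10 genes, with a point for each of 6 replicates of null (red) and WT (blue) and bars for the mean and SD. The null and WT points overlap for every gene, Gclm and Slc7a11 lie at background near 6.2, and heights of different probes are not comparable as transcript amounts.

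In several of these genes the replicates were ordered by the dye. The Cy5 over Cy3 term of the same fit was 0.61 for Sod1 (adjusted p = 0.00227) and 0.17 for Gsr (adjusted p = 0.0415), and these 2 of 8 members were called for it, against 13.5% of all tested probes. For Sod1, the mean Cy5 over Cy3 ratio was 0.63 ± 0.090 (SD, n = 3) with null RNA in Cy5 and 0.59 ± 0.17 with WT RNA in Cy5. The same dye was brighter in both orientations, by more than any genotype ratio of a member. Nqo1 had a dye term of 0.16 (adjusted p = 0.0502) and Sod2 of 0.13 (adjusted p = 0.0935), neither past the threshold. In the brightest probes of the other 4 genes it ran from -0.034 for Cat to 0.051 for Srxn1. The dimmer Srxn1 probes A_51_P330125 and A_52_P593200 had 0.16 (adjusted p = 0.124) and 0.062 (adjusted p = 0.464). Among the other Gsr probes, A_52_P91604 had 0.20 (adjusted p = 0.0176) and A_51_P359625 had -0.020.

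**Figure D3:**
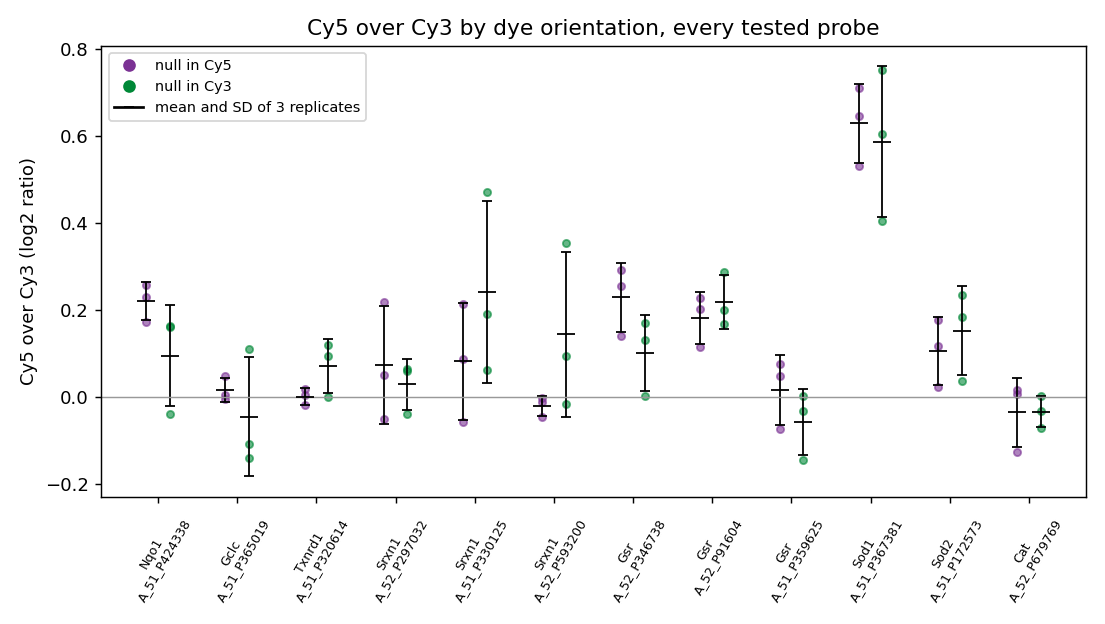
Log2 ratio of Cy5 over Cy3 for the 12 tested probes of the antioxidant genes, with null RNA in Cy5 (purple) or in Cy3 (green), a point for each of 3 replicates and bars for the mean and SD. The null over WT ratio is the distance from the midpoint of the colour means to the purple mean, positive where purple is higher. The Sod1 probe sits at 0.63 and 0.59, high in both.

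Duplicate arrays gave closer values than replicates did. Over the 8 tested genes, the median difference between the duplicate arrays of a replicate was 0.037, and the median SD over the 6 replicates was 0.14, a value that includes the dye. The median standard error of the genotype ratio was 0.044 for the members and 0.051 for all tested probes. The widest duplicate difference among tested member probes was 0.50, in the dim Srxn1 probe A_51_P330125 in WT/null replicate 3. For the brightest probes it was 0.16, in Gsr.

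Other genes of the same pathways were read from lists chosen by known function, by the brightest tested probe of each gene. Among NRF2 regulators, 11 of 12 genes were tested, 4 above 0 and 7 below, with a median of -0.020, 0 called and 0 with an unadjusted p under 0.05. Keap1, the inhibitor of NRF2, had -0.066 ± 0.045 (SE; adjusted p = 0.729), and Rbx1, the RING subunit of the CUL3 ligase, had -0.10 ± 0.054 (adjusted p = 0.711) with its brightest probe. Its other probes gave -0.021 ± 0.038 and -0.013 ± 0.042. Above 0 were Maff, a small MAF partner, at 0.069 ± 0.044, and Nfe2l1, a relative of NRF2, at 0.065 ± 0.042. The replicates of Keap1, Nfe2l1 and the brightest Rbx1 probe were separated by dye orientation, and those of Maff were not. Nfe2l2 itself, named for its role after its value was seen, had 0.0083 ± 0.050 (adjusted p = 0.965) with the brightest of its 2 tested probes. That probe had slide means of 0.045, -0.12 and 0.10, and the value of the other is not given here. The transcript of NRF2 is a weak guide to its activity, which is set mostly by protein turnover and was not measured.

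Further NRF2 targets of detoxification and of haem and iron handling showed no called gene either. Of 16 genes 14 were tested, 8 above 0 and 6 below, with a median of 0.025 and 0 with an unadjusted p under 0.05. Cbr3, a carbonyl reductase, had 0.11 ± 0.064 (SE; adjusted p = 0.722), with slide means of -0.064, 0.092 and 0.30, and Mgst1, a microsomal glutathione transferase, had 0.095 ± 0.055 (adjusted p = 0.721). Below 0, Osgin1 had -0.037 ± 0.046 and Gstm1, a cytosolic glutathione transferase, -0.036 ± 0.061. Hmox1, haem oxygenase and a standard NRF2 target, was named after its value was seen and had 0.070 ± 0.041 (adjusted p = 0.722), above 0 in 5 of 6 replicates.

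NADPH supply feeds both Gsr and Txnrd1. Of its 8 genes 7 were tested, 2 above 0 and 5 below, with a median of -0.035, 0 called and 1 with an unadjusted p under 0.05. That gene was Idh1, the cytosolic isocitrate dehydrogenase, whose ratios were -0.20, -0.21 and -0.025 in null/WT replicates 1, 2 and 3, and -0.031, -0.0098 and -0.23 in WT/null replicates 1, 2 and 3. All 6 were below 0, and the slide means, -0.12, -0.11 and -0.13, were nearly equal. The fitted value was -0.12 ± 0.048 (SE, n = 6; adjusted p = 0.7001), and with pairs no gene of this list had an unadjusted p under 0.05. Pgd, of the pentose phosphate pathway, had -0.062 ± 0.041 with its brightest probe and -0.18 ± 0.078 with the other, which was nearly as bright (adjusted p = 0.7101). G6pdx, the first enzyme of that pathway, had 0.039 ± 0.050. Me1, malic enzyme, had 0.027 ± 0.052.

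Genes of glutathione handling were tested for 14 of 14 members, 7 above 0 and 7 below, with a median of -0.0020, 0 called and 1 with an unadjusted p under 0.05. It was Gpx3, the secreted plasma glutathione peroxidase that is made mainly in kidney tubules, with ratios of -0.32, -0.087 and -0.21 in null/WT replicates 1, 2 and 3, and -0.099, -0.038 and -0.25 in WT/null replicates 1, 2 and 3. All 6 replicates were below 0, and slide 2 was nearest to it, with slide means of -0.21, -0.062 and -0.23. The fit gave -0.17 ± 0.048 (SE, n = 6; adjusted p = 0.588). Its unadjusted p was under 0.05 with pairs as well, as for 3.30% of all probes. Gpx2 had -0.15 ± 0.11, with a slide 3 mean of -0.53 and the other slides at 0.069 and 0.013. Gpx8, of the endoplasmic reticulum, had 0.059 ± 0.046.

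Ggt1, a brush border enzyme that breaks down extracellular glutathione, had the highest ratio of the glutathione list, 0.24 ± 0.13 (SE; adjusted p = 0.711). Its slide means were -0.15, 0.17 and 0.70. The median of 6 tested proximal tubule markers, all 6 above 0, 0 called and 3 with an unadjusted p under 0.05 (2 with pairs), took the same order, at -0.022, 0.11 and 0.61. The summed intensity of those markers was 2882 to 7893 over the null replicates and 2664 to 6613 over the WT replicates, with Cubn not tested. The part of the tubule markers in the Ggt1 value was not tested.

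The thioredoxin and peroxiredoxin list was tested for 14 of 14 genes, 3 above 0 and 11 below, with a median of -0.032, 0 called and 0 with an unadjusted p under 0.05. Sesn2, a stress-induced sestrin, had -0.16 ± 0.081 (SE; adjusted p = 0.7101). Its unadjusted p was under 0.05 only in the fit on pairs, where 3.30% of all probes reached that. Txnrd2, the mitochondrial thioredoxin reductase, had -0.12 ± 0.059 (adjusted p = 0.7101) with its brightest probe. The other Txnrd2 probe gave -0.16 ± 0.059 (adjusted p = 0.675), with an unadjusted p under 0.05 that the count by brightest probe leaves out. Above 0 were Txnip, the thioredoxin inhibitor, at 0.069 ± 0.050, and Sesn1 at 0.051 ± 0.038. The 6 Sesn2 replicates were separated by orientation, from -0.74 to -0.12 in null/WT and from -0.012 to 0.31 in WT/null.

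Sources of superoxide and its other defences were the list least visible on these arrays, with 6 of 13 genes tested. Sod3, the extracellular dismutase, and the oxidases Nox1 and Duox1 were not well above background, and no probe was matched to Duox2. Of the tested genes 4 were above 0 and 2 below, with a median of 0.020, 0 called and 0 with an unadjusted p under 0.05. Nox4, the main renal NADPH oxidase, had 0.12 ± 0.079 (SE; adjusted p = 0.728) with its brightest probe and -0.054 ± 0.061 with the other. Slides 1, 2 and 3 gave 0.073, -0.073 and 0.37 for the brightest Nox4 probe. The phagocyte oxidase subunits Ncf4 and Ncf1 had 0.11 ± 0.071 and -0.097 ± 0.082. Their slide means were -0.015, -0.011 and 0.35 for Ncf4, and -0.098, 0.045 and -0.24 for Ncf1. Ccs, the copper chaperone that loads SOD1, had -0.012 ± 0.037.

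**Figure D4:**
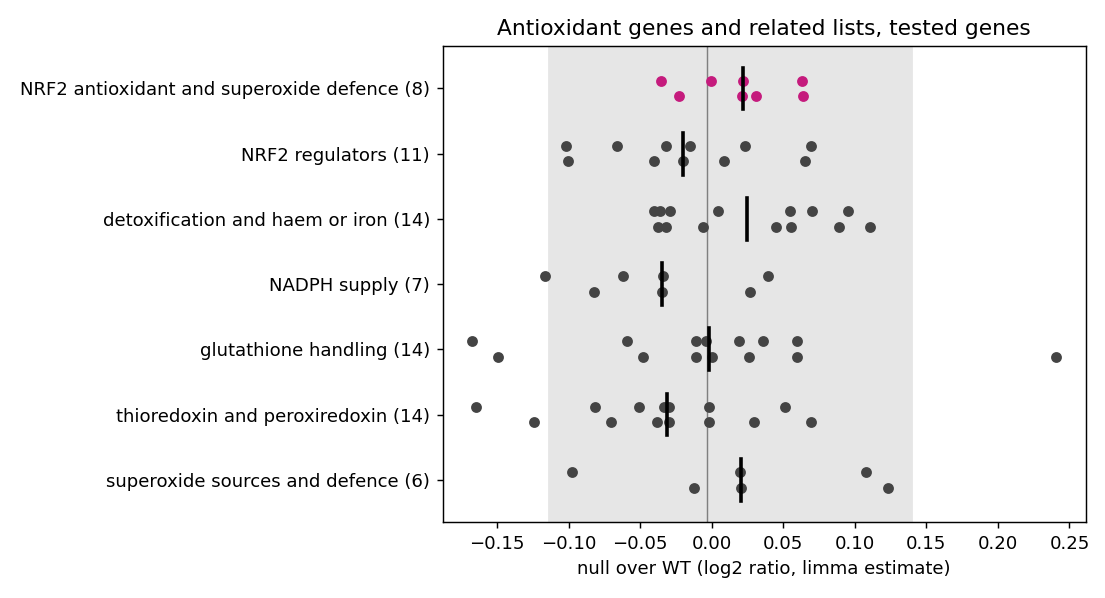
Log2 ratio of null over WT for each tested gene of the antioxidant set (pink) and of 6 related lists (grey), with black bars for list medians, the number tested in brackets, a line at the median of all tested genes and shading from the 5th to the 95th percentile of all genes. The 8 antioxidant genes fall inside the shading, and the genes outside it include Ggt1 at 0.24 and Gpx3 at -0.17.

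Some marker lists of other cell types had medians further from 0 than that of the antioxidant genes. Skeletal muscle markers, 6 of 6 tested, 0 called and all 6 with an unadjusted p under 0.05 (4 with pairs), had a median ratio of 0.98, with slide medians of 0.16, 0.46 and 2.23, and their summed intensity was 822 to 4174 in null and 758 to 923 in WT. Medians were 0.26 for 6 of 7 proximal tubule markers, 0.12 for 4 of 7 liver markers and 0.095 for 7 of 8 macrophage markers, with all tested markers of these lists above 0. They were 0.039 for 7 of 11 erythroid markers, 0.050 for 4 of 5 adrenal markers and 0.011 for 10 of 11 embryonic kidney markers, with 2, 2 and 4 below 0. In these 6 lists 0 were called. An unadjusted p under 0.05 was reached by 3 tubule, 1 liver and 1 adrenal marker (2, 0 and 1 with pairs) and by 0 of the others. Over all tested probes the share was 7.01%, and 3.30% with pairs. The median of the 8 antioxidant genes on slides 1, 2 and 3 was 0.030, -0.044 and 0.062. It was highest on slide 3, as for the muscle and tubule markers, and lowest on slide 2, while theirs were lowest on slide 1. A part of cell composition in the antioxidant values was not tested. On slide 1, where the sexes matched and the muscle median was nearest 0, the antioxidant genes ran from -0.080 for Sod2 to 0.14 for Nqo1.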

How the data were processed

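RNA of null and WT kidneys was measured on 12 2-colour arrays (6 replicates on 2 arrays each, 43379 spots an array). The deposited scanner files hold spot and background intensities and a log10 ratio of Cy5 over Cy3 per spot. Per the file headers the images were read by Agilent's Feature Extraction software, version 10.5.1.1, while the submitters' processing notes name version 6.1. The authors' deposited value table holds log10 ratios with column medians of -0.0218 to 0.00645. They correlated at 0.998 to 0.999 with the scanner log ratios after those were turned to null over WT. The direction of the table is thus null over WT on every array, also where the scanner ratio is WT over null. A correlation does not show scale, but on the log2 scale the fitted Nqo1 ratio was 0.070 from either source. The table was used as an alternative only. Every column of values belonged to a sample.

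Median intensities were corrected with normexp (offset 50) and normalized by loess within arrays, with control and outlier spots (101 to 262 an array) at weight 0. Spots of one probe, then duplicate arrays, were averaged and turned to null over WT. Probes well above background in one genotype on at least 6 of 12 arrays were tested, 22979 of 41174, with a dye term in limma 3.58.1 (R 4.3.3) and Benjamini-Hochberg adjustment. A gene was read from its brightest tested probe. Channel signals were set on one scale by Aquantile. Of these steps, only the limma fit was tried on simulated ratios. The simulated replicates were independent of each other, and the planted changes were larger than any member ratio. Array number limits the precision.

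Symbols came from matching probe accessions to RefSeq (25097 probes). The array design names mm9, and RefSeq was of GRCm38.p6, so gene coordinates other than the promoters' own are not given. The members and lists were chosen with earlier results of these data known, and lists are described by counts and medians only. From each pathway list, the text names the 2 genes above 0 and the 2 below 0 with the smallest p.

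Same-numbered null/WT and WT/null replicates shared a slide, and their deviations from the orientation means correlated at 0.59, 0.52 and 0.41 (other pairs -0.33 to -0.16), so the numbers pair the samples. A fit on the 3 pair means was the replicate block. Alternatives changed the background, normalization, filter, dye term, replicates, duplicate arrays and probe choice.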

Additional observations from a re-analysis of the deposited data

Results flagged for a closer look

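The Cat ratio of null/WT replicate 2, -0.127, lay apart from the other 5 replicates: its gap to the nearest was 0.629 of the whole range, past Dixon's 95% critical value for 6 samples. Among the 8 genes examined this way it was the only one past that value, and chance alone passes it in about 1 in 20 groups. The duplicate arrays of that replicate gave -0.12 and -0.13.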

How the results depend on the processing

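No member was called under any of 22 alternatives, where 160 of 176 member values kept their direction and 16 changed it. Many of those kept could not have changed. The changes of filter, the replicate block and the fit without a dye term leave each member ratio as it was. So does the mean of all tested probes for genes with no other tested probe. With the 3 pairs as a replicate block, 4 probes of the array were called in place of 9, and no call among the antioxidant genes changed. Median centring gave a median of the members of 0.21, with Txnrd1 at 0.18, Sod2 at 0.19 and Cat at 0.18, and there the median of all probes was 0.14. Scale normalization between arrays gave 17 calls, 11 of them higher in null against 5 of 9 in the fit reported, and Sod1 at -0.0086 and Cat at 0.0060. When the noisier array of WT/null replicate 3 was dropped, 15 probes were called and Cat was 0.00056. First arrays alone gave Sod1 -0.010 and Cat 0.015, and the mean of all tested probes gave Srxn1 -0.047. With number 1 left out Sod2 was 0.0055, with number 2 left out 3 probes were called and Cat was 0.031, and with number 3 left out 62 probes were called and Srxn1 was -0.031. Leaving out each replicate in turn gave 5 to 12 calls, Cat from -0.013 to 0.022, Sod1 from -0.024 to 0.062 and Srxn1 from -0.014 to 0.053. The causes of these shifts were not tested. Signal over background limits Gclm and Slc7a11, which have no ratio.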
